A study of Mus musculus with 4 samples.

Results

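The coreceptor genes Cd4, Cd8a and Cd8b1 and 6 transcription factor genes that act in the choice between the CD4 and CD8 fates (Zbtb7b, Runx1, Runx3, Gata3, Tox and Bcl11b) were read in T29 cells, a line from a mouse thymic lymphoma. The members were every probe set whose only gene symbol in the platform annotation was one of these 9 genes, which gave 26 of the 45037 probe sets tested and 9 of 18193 genes. A probe set is the group of short array probes that together report one transcript or part of one. One group of 2 arrays came from cells given the solvent DMSO, and the other group of 2 from cells given MRK003, a gamma-secretase inhibitor (GSI), for 36 h at a dose the labels write as 5 mM. The unit of that dose could not be checked, and the labels carry the same treatment text for all 4 samples, so the groups follow the sample titles. T29 is a single tumour line, no genotype is given, and the labels do not state that replicates were grown separately, so p-values here reflect array-to-array spread that could be purely technical.

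CD4 and CD8 are surface proteins that bind MHC class II and class I molecules beside the T cell receptor and bring the kinase Lck to it. Thymocytes first carry neither coreceptor, a stage that depends on Notch signalling, then both, and then keep one of them. Zbtb7b (ThPOK) commits cells to the CD4 fate, Runx3 silences Cd4 and supports the CD8 fate, and Gata3 and Tox act upstream of Zbtb7b. Runx1 represses Cd4 at the earliest stage, and Bcl11b fixes T lineage identity. Gamma-secretase releases the intracellular part of Notch receptors, so its inhibition removes that signal.

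With GSI, Cd8a rose 2.11-fold, Cd8b1 1.96-fold, Tox 1.77-fold, Cd4 1.68-fold and Gata3 1.55-fold when each gene was read from its brightest probe set (n = 2 arrays a group; limma, adjusted p = 0.0121, 0.0148, 0.0148, 0.0306 and 0.0406). These are 5 of the 9 genes, and 0 fell (limma; before adjustment 8 were under 0.05, all higher). The share of all genes under 0.05 before adjustment is not given, so unadjusted counts here and below have no background beside them. Over all genes 2.56% were called higher and 1.56% lower at an adjusted p under 0.05. The 9 genes were chosen with earlier results of these data known, so this contrast is no independent support. The group means of all 9 genes were higher with GSI, as were those of 47.0% of all genes, and the median difference of the 9 was 0.63 on the log2 scale against -0.01 over all genes. In 8 of the 9 both GSI arrays lay above both DMSO arrays, against 23.7% of all genes (27.7% had both below). Runx3, Runx1, Bcl11b and Zbtb7b did not pass, with log2 differences of 0.57, 0.35, 0.33 and 0.08. No member call held when any 1 of the 4 arrays was left out (DMSO replicate 1, DMSO replicate 2, GSI replicate 1 or GSI replicate 2). Fits with 3 arrays made few calls on any gene: over all genes 0 to 1 were called higher and 0 to 5 lower. On the log2 scale the differences in those fits were 0.93 to 1.22 for Cd8a and 0.86 to 1.09 for Cd8b1. They were 0.74 to 0.91 for Tox, 0.62 to 0.87 for Cd4 and 0.52 to 0.75 for Gata3.

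**Figure D1:**
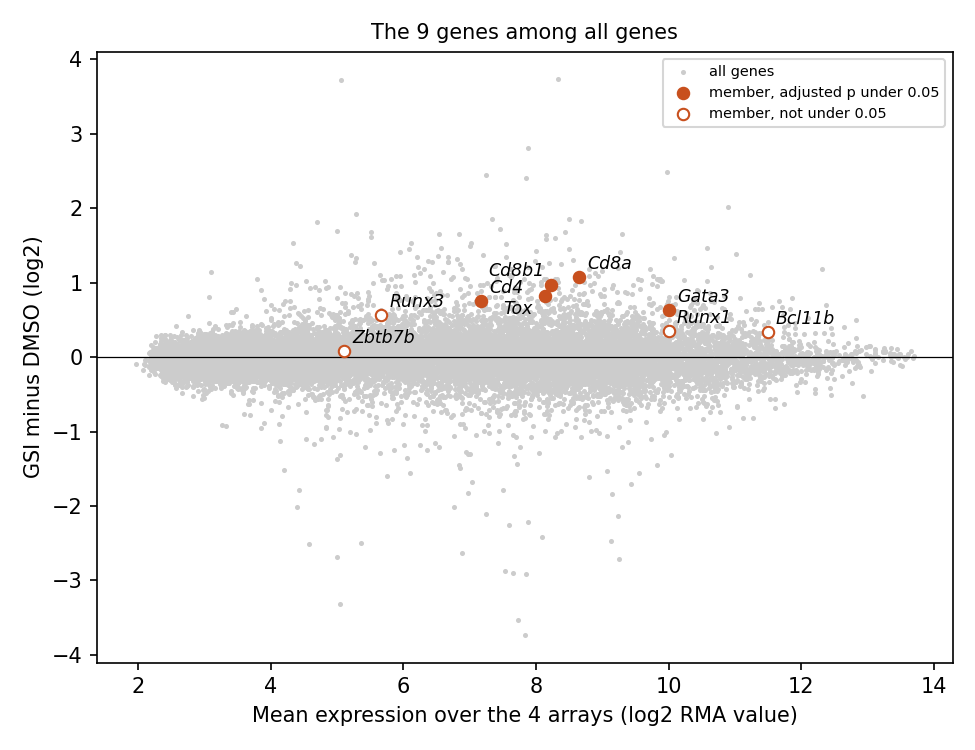
The log2 difference between GSI and DMSO arrays (vertical) is plotted against the mean log2 RMA value over the 4 arrays (horizontal) for 18193 genes, each read from its brightest probe set. Filled orange points are the 5 members called by limma and open points the 4 that were not; all 9 lie above 0, from 0.08 for Zbtb7b to 1.07 for Cd8a.

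When every probe set was tested on its own, 7 of the 26 member probe sets were called higher and 0 lower by limma (19 and 1 before adjustment), while 0.948% of all probe sets were called higher and 0.446% lower. The 7 were 4 of Cd8a, the single one of Cd8b1, 1 of Tox and 1 of Runx1. The 8 coreceptor probe sets all had higher means with GSI, with a median difference of 1.02 on the log2 scale and 5 calls. Of the 18 probe sets of the 6 factors 16 had higher means, beside 46.8% of all probe sets, with a median of 0.39 and 2 calls. Probe sets of the same gene are not independent readings. Cd8a gave 5 of the 8 coreceptor probe sets, and Runx1 gave 6 and Bcl11b 4 of the 18. In 21 of the 26 both GSI arrays lay above both DMSO arrays and in 2 below, against 21.3% and 25.2% of all probe sets. Cd4 (adjusted p = 0.0558) and Gata3 (adjusted p = 0.0733) passed limma among genes but not among probe sets.

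**Figure D2:**
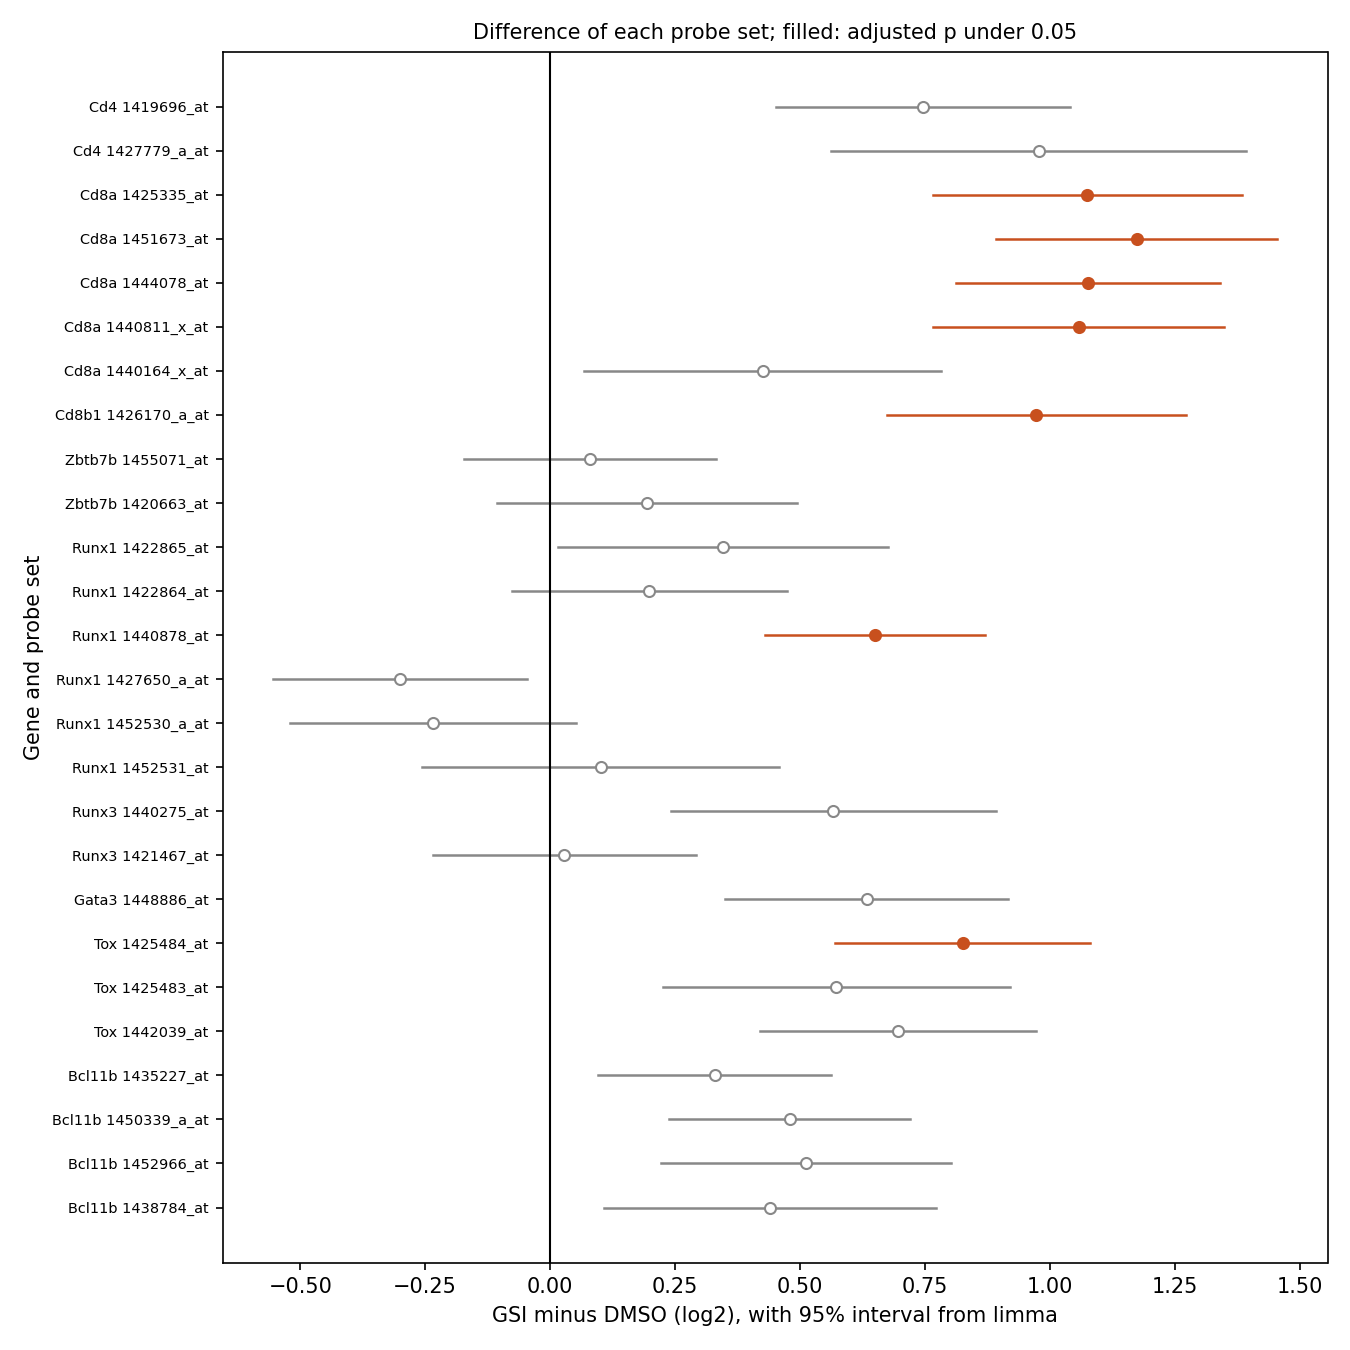
Each row is 1 of the 26 member probe sets, with its log2 difference between GSI and DMSO arrays and the 95% interval from limma; filled orange points passed at an adjusted p under 0.05 over all probe sets. The Cd8a and Cd8b1 intervals lie right of 0, those of Zbtb7b span 0, and the Runx1 probe sets range from -0.30 to 0.65.

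The bases before the annotated start sites are shown for a coreceptor and a factor that rose, Cd8a and Gata3, and for the pair of factors with opposed roles that did not pass, Runx3 and Zbtb7b. They are the 250 bases before a start in RefSeq, build GRCm38.p6, printed 5′ to 3′ on the gene's strand. Of the 9 genes 6 had an entry, with 9 start sites between them; Cd4, Cd8b1 and Tox had none. Capitals mark matches on either strand to TGTGGT (reverse ACCACA), a core bound by RUNX factors, and to TGGGAA (reverse TTCCCA), a core bound by RBPJ, the DNA-binding partner of Notch; the 2 motifs do not overlap here.
Cd8a, chr6:71373177-71373426, plus strand: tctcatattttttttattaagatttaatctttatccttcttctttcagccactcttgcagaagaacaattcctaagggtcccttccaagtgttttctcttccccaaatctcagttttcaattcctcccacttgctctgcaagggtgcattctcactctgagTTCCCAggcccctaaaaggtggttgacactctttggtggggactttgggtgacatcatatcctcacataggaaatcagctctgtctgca
Gata3, chr2:9878601-9878850, minus strand: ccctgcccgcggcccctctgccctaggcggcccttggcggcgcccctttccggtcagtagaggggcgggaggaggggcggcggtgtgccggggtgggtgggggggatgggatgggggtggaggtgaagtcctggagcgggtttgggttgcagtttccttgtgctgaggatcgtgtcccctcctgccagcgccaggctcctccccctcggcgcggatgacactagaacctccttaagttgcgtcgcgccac
Runx3, chr4:135120395-135120644, plus strand: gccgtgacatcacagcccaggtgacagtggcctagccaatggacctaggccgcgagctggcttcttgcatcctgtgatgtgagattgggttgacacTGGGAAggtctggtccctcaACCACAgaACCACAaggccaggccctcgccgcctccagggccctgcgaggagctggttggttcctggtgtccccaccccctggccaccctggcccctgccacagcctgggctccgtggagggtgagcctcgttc
Zbtb7b, chr3:89387672-89387921, minus strand: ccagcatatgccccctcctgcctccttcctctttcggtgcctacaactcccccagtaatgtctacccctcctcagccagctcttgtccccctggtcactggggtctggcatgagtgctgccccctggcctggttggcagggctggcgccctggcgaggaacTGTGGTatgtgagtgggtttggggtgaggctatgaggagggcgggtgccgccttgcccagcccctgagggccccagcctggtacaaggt
Zbtb7b, chr3:89393379-89393628, minus strand: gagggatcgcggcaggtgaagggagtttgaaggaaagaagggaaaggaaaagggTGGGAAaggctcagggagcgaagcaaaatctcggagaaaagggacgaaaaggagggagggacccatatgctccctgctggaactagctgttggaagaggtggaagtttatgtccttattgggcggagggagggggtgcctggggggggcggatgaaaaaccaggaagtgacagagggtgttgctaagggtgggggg
The Cd8a window held 1 RBPJ match, the Runx3 window shown held 2 RUNX matches and 1 RBPJ match, and the 2 Zbtb7b windows held 1 RUNX and 1 RBPJ match. The Gata3 window held neither, nor did the windows of Bcl11b, both of Runx1 or the other of Runx3. Of 32851 such windows from RefSeq, 14.0% held TGTGGT and 21.6% held TGGGAA on either strand. A match is a run of letters and not a measured binding site, and no binding was measured here.

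Cd8a encodes the alpha chain of CD8, which pairs with itself or with the beta chain. Its brightest probe set, 1425335_at, read 7.96 and 8.26 with DMSO and 9.18 and 9.19 with GSI, in log2 units. The groups did not overlap, and the GSI arrays lay close to their mean of 9.19 (SD 0.0092). Probe set 1451673_at read 7.92 and 8.02 with DMSO and 9.04 and 9.26 with GSI, a 2.26-fold rise (95% interval of the log2 difference 0.89 to 1.46; limma over all probe sets, adjusted p = 0.0163). Probe set 1444078_at read 7.72 and 7.84 against 8.78 and 8.94, a 2.11-fold rise. Probe set 1440811_x_at read 5.45 and 5.60 against 6.48 and 6.69, a 2.08-fold rise. These 4 rises lay between 1.06 and 1.17 on the log2 scale although their levels differed. The last probe set, 1440164_x_at, stood apart in size, at 5.90 and 5.56 with DMSO and 6.25 and 6.07 with GSI, a difference of 0.43 (95% interval 0.07 to 0.78; limma, adjusted p = 0.235). The ending _x_at marks probe sets that share probes with other sequences, so what these latter 2 report besides Cd8a is uncertain.

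Cd8b1, the beta chain of CD8, had a single probe set, 1426170_a_at. It read 7.62 and 7.85 with DMSO and 8.63 and 8.79 with GSI, and its groups did not overlap (difference 0.97, SE 0.12, 95% interval 0.67 to 1.27; limma over all probe sets, adjusted p = 0.0286). In the RefSeq gene order Cd8b1 lies next to Cd8a on chromosome 6. Its change and that of Cd8a differed by 0.10 on the log2 scale, about the size of the SD of this difference over the 2 GSI arrays (0.10), and it was not tested, since the exact permutation test of 2 against 2 arrays cannot go below p = 0.333. By the distance between the 4 array values, each taken from its gene mean, Cd8b1 was the gene with rank 6 of 18192 in likeness to Cd8a, and Cd8a had rank 9 in likeness to Cd8b1. The distance between them was 0.15 log2 units.

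Cd4 was read by 2 probe sets. Probe set 1419696_at was at 6.75 and 6.85 with DMSO and 7.67 and 7.42 with GSI. Probe set 1427779_a_at was at 4.71 and 5.19 with DMSO and 5.90 and 5.95 with GSI. Both DMSO arrays lay below both GSI arrays in each, with differences of 0.75 (95% interval 0.45 to 1.04) and 0.98 (95% interval 0.56 to 1.39). Neither passed among all probe sets (limma, adjusted p = 0.0558 and 0.0666), while the first passed among genes and rose. The second started near the array medians of 4.86 to 4.89, where array values understate differences. The change of Cd8a exceeded that of Cd4 by 0.33 on the log2 scale when each was read from its brightest probe set and by 0.10 when each was the mean of its probe sets. The SD of this difference was 0.14 over the DMSO arrays and 0.19 over the GSI arrays, and this difference was not tested either. In these bulk samples more cells of a kind and more RNA per cell cannot be told apart, so the arrays do not show whether the same cells carried both coreceptors.

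**Figure D3:**
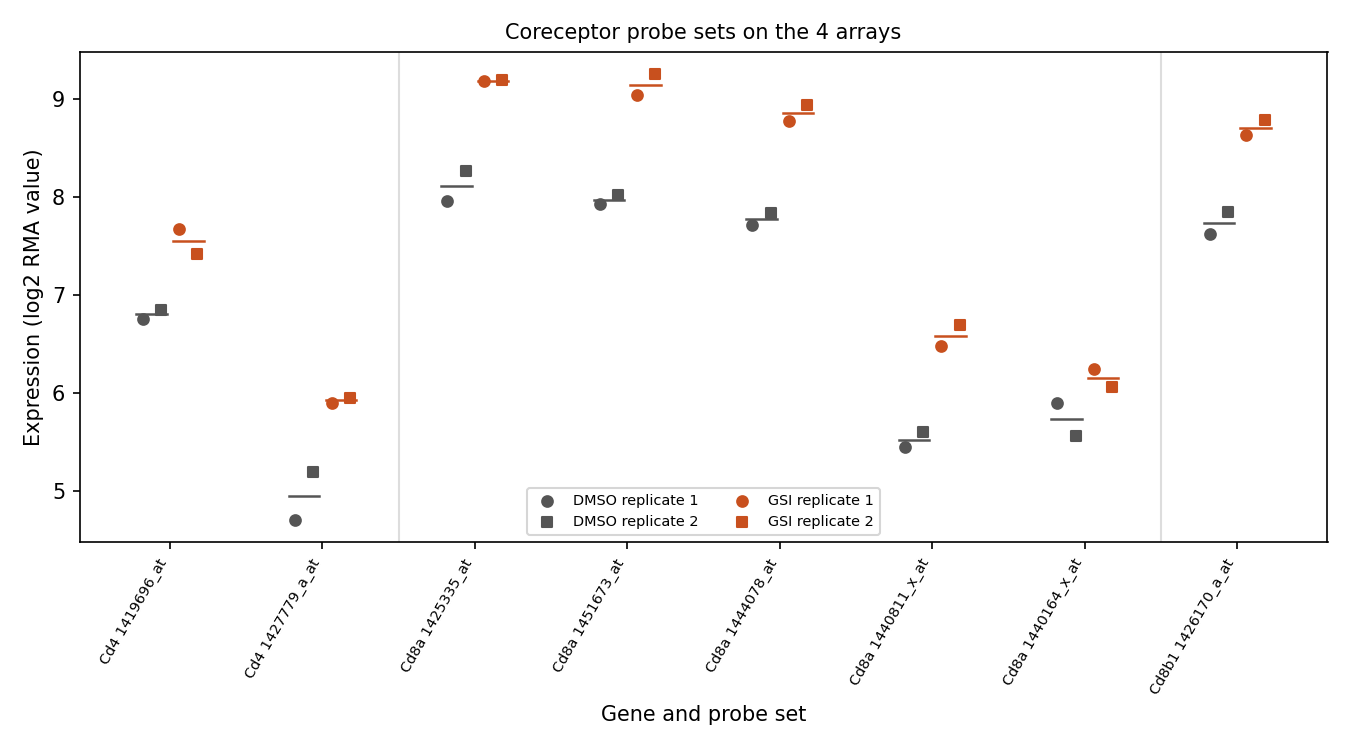
Log2 RMA values of the 8 coreceptor probe sets are plotted for each of the 4 arrays, with DMSO in grey and GSI in orange and short lines at the group means. In each probe set both orange points lie above both grey points, and the gap is smallest for Cd8a 1440164_x_at.

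Tox encodes an HMG-box factor that the CD4 lineage needs. Its brightest probe set, 1425484_at, read 7.81 and 7.64 with DMSO and 8.59 and 8.52 with GSI, and rose (difference 0.83, SE 0.10; limma over all probe sets, adjusted p = 0.0301). Probe set 1442039_at read 6.30 and 6.14 against 7.00 and 6.84, a difference of 0.70 (adjusted p = 0.0563). Probe set 1425483_at read 7.78 and 7.49 against 8.32 and 8.09, a difference of 0.57 (adjusted p = 0.134). All 3 had both GSI arrays above both DMSO arrays.

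Gata3, a zinc-finger factor needed from the first T cell stages and again for CD4 cells, had 1 probe set, 1448886_at. It read 9.58 and 9.81 with DMSO and 10.37 and 10.29 with GSI, without overlap (difference 0.63, 95% interval 0.35 to 0.92 over all probe sets). It passed limma among genes only, as given above, and not there with the replicate block (adjusted p = 0.109).

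Bcl11b encodes a zinc-finger factor that blocks other lineages. Its 4 probe sets all had both GSI arrays above both DMSO arrays, with differences of 0.33 to 0.51 on the log2 scale, and 0 of the 4 passed limma (adjusted p = 0.0930 to 0.199; unadjusted p under 0.05 in all 4). Probe set 1435227_at, the brightest, read 11.29 and 11.37 with DMSO and 11.69 and 11.63 with GSI. The probe set with the largest difference, 1452966_at, read 9.84 and 9.99 against 10.53 and 10.32. The brightest had the smallest of the 4 differences, so the reading from the brightest probe set was the lowest for this gene. As the mean of its probe sets Bcl11b differed by 0.44 (limma, adjusted p = 0.0580). It passed when dim genes were left out (adjusted p = 0.0466) and with eBayes set to a trend and a robust prior (adjusted p = 0.0102). Both of these settings also raised the calls over all genes. With the replicate block Bcl11b did not pass (limma, adjusted p = 0.182).

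Runx1 was the member whose probe sets disagreed. Probe set 1440878_at read 8.48 and 8.50 with DMSO and 9.14 on both GSI arrays, a 1.57-fold rise (95% interval of the log2 difference 0.43 to 0.87; limma over all probe sets, adjusted p = 0.0373). Probe set 1427650_a_at read 8.22 and 8.21 with DMSO and 7.83 and 8.00 with GSI, so that both GSI arrays were lower (difference -0.30, 95% interval -0.55 to -0.05; adjusted p = 0.239). The first minus the second was 0.26 and 0.30 with DMSO and 1.32 and 1.14 with GSI, a shift of 0.95 (SDs 0.03 and 0.12). This pair was chosen after the values were seen, as the largest and smallest of the 6 differences, and was not tested. Its shift is therefore the largest of any Runx1 pair by choice. Of the other 4, 1452530_a_at was also lower on both GSI arrays, at 7.19 and 6.95 against 6.87 and 6.80. The brightest probe set, 1422865_at, read 9.66 and 10.00 against 10.18 and 10.17, and 1422864_at read 9.21 and 9.44 against 9.51 and 9.53; neither passed (adjusted p = 0.286 and 0.452). The groups overlapped in 1452531_at. Over the 6, 4 probe sets had higher means with GSI and 2 lower ones, and the mean of the 6 differed by 0.13 (limma among genes, adjusted p = 0.449). Which Runx1 transcripts each probe set reports was not analysed here, so no single direction is given for the gene.

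**Figure D4:**
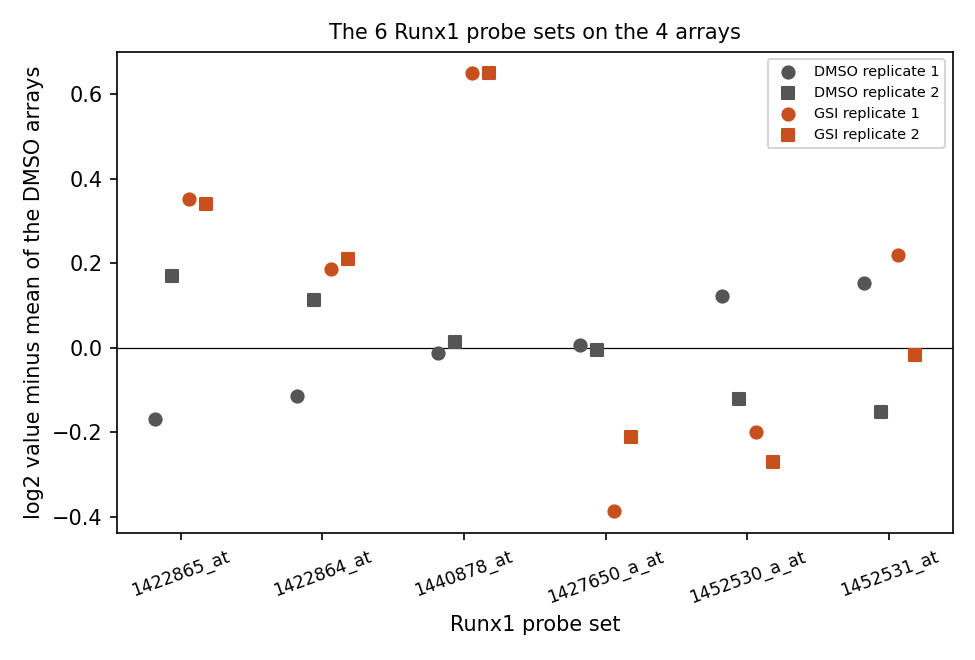
Log2 values of the 6 Runx1 probe sets on the 4 arrays are plotted as differences from the mean of the DMSO arrays, which is 0 for each probe set. Both GSI arrays lie at 0.65 for 1440878_at, and both lie below 0 for 1427650_a_at and 1452530_a_at.

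Runx3, the CD8 lineage factor, was read by 2 probe sets, with values of 5.25 to 6.05, that also differed from each other. Probe set 1440275_at read 5.52 and 5.25 with DMSO and 6.05 and 5.85 with GSI, with no overlap (difference 0.57; limma among genes, adjusted p = 0.0708). Among genes it passed with dim genes left out or with trend and robust prior in eBayes (adjusted p = 0.0340 and 0.0332). These 2 settings also raised the higher calls over all genes, from 466 to 899 and 1042. Runx3 did not pass with the replicate block (limma, adjusted p = 0.0861). As the mean of its 2 probe sets it differed by 0.30 (limma, adjusted p = 0.158). Probe set 1421467_at read 5.41 and 5.48 against 5.57 and 5.38, and its groups overlapped (difference 0.03, 95% interval -0.23 to 0.29).

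Zbtb7b, the CD4 commitment factor, stayed close to the array medians. Probe set 1455071_at read 5.01 and 5.11 with DMSO and 5.21 and 5.07 with GSI, and the groups overlapped (difference 0.08, 95% interval -0.17 to 0.33; limma over all probe sets, adjusted p = 0.772). Probe set 1420663_at read 4.60 and 4.87 against 4.90 and 4.96 (difference 0.19, 95% interval -0.11 to 0.49; adjusted p = 0.498). A rise of the size seen for Cd4 lies outside both intervals, but at this brightness the arrays may understate a change.

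**Figure D5:**
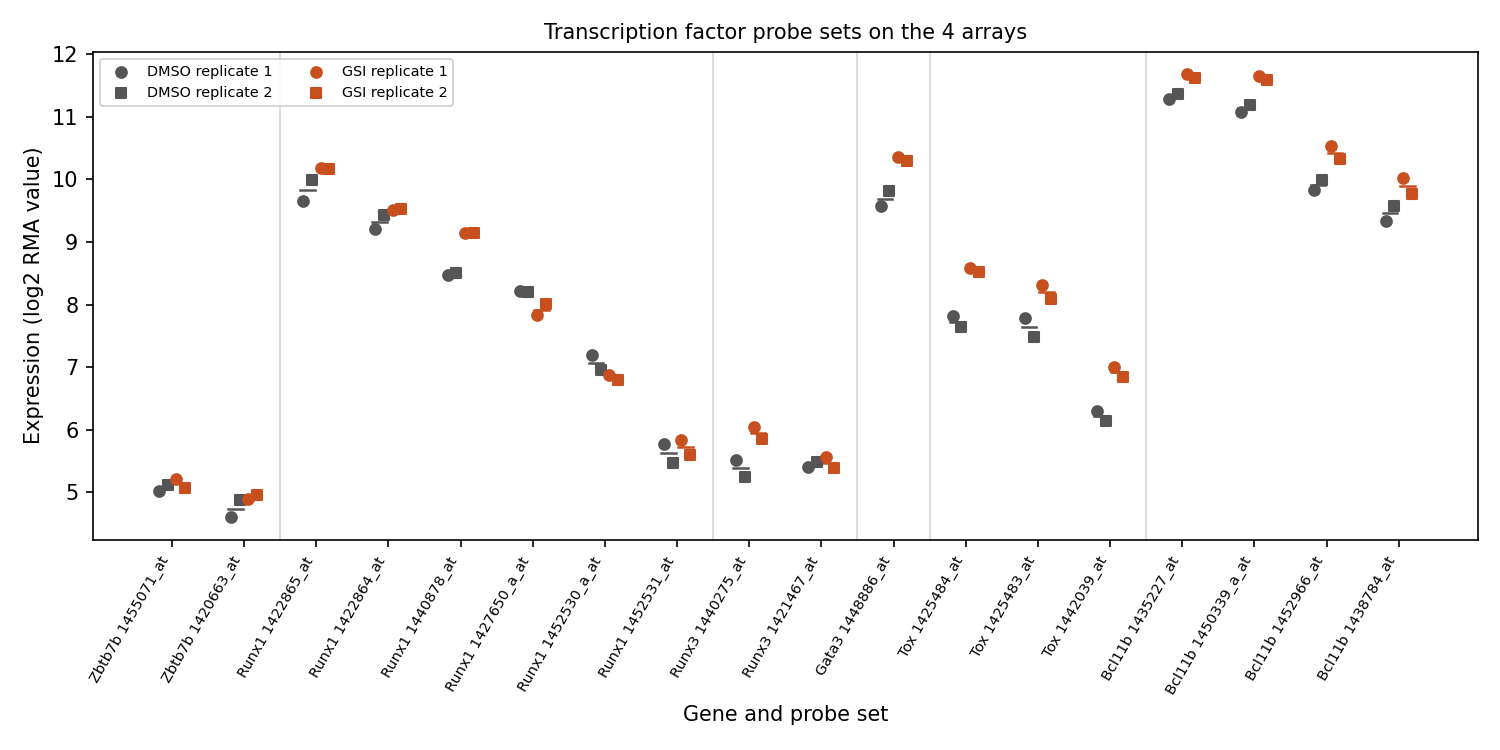
Log2 RMA values of the 18 probe sets of the 6 factors are plotted for each array, with DMSO in grey and GSI in orange and short lines at the group means. The orange points lie above the grey ones in all 3 Tox, the Gata3 and all 4 Bcl11b probe sets, while the Runx1 probe sets point both ways.

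The genes beside the members in the RefSeq gene order were read as a local comparison. Of the 16 nearest measured genes that are not members, 0 passed limma (before adjustment 3 were under 0.05, all higher), and their median difference was 0.04 on the log2 scale. Beside Cd4, Gpr162 read 6.71 and 6.75 with DMSO and 7.15 and 7.46 with GSI (limma, adjusted p = 0.0626), and Lag3, which encodes a receptor related to CD4, read 4.12 and 3.95 against 4.37 and 4.02. Beside Cd8a on the side away from Cd8b1, Rmnd5a differed by 0.30 (adjusted p = 0.149). Beside Runx3, Clic4 differed by 0.41 (adjusted p = 0.0731).

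The genes with array patterns most like Cd4 were Acap1, Itm2b and Pik3ip1, at distances of 0.04, 0.05 and 0.07 log2 units. Those most like Cd8a were Vim, Ankrd50 and Mcoln3 (0.05, 0.11 and 0.12), and those most like Cd8b1 were St6galnac5, Tctex1d1 and Vim (0.09, 0.11 and 0.11). Likeness was read over 4 arrays and 18192 other genes. Vim, encoding vimentin, read 9.56 and 9.87 with DMSO and 10.72 and 10.78 with GSI.

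Of the partners and relatives of the 6 factors, 0 of 13 measured genes passed limma, and 2 were higher at an unadjusted p under 0.05. Those 2 were the corepressor gene Cbfa2t3 (difference 0.24, adjusted p = 0.165) and Gata1 (0.28, adjusted p = 0.224). Cbfb, the subunit that RUNX proteins need to bind DNA, was bright and read 11.63 and 11.66 with DMSO and 11.76 and 11.62 with GSI. The relative Tox2 had the largest difference of the list, 0.29 (adjusted p = 0.320).

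Of 33 other factors that control coreceptor genes or the CD4 and CD8 fates, 2 fell, 0 rose and 31 did not pass by limma, with a median difference of 0.09 and 5 higher at an unadjusted p under 0.05. Lef1, an HMG-box factor that acts with Tcf7, read 11.35 and 11.39 with DMSO and 10.67 and 10.74 with GSI (limma, adjusted p = 0.0185). The corepressor gene Tle3 read 10.79 and 10.72 against 10.05 and 10.11 (adjusted p = 0.0186). Tcf7 and Ncor1 were not analysed here. Of 16 genes of coreceptor signalling and the T cell receptor complex 4 rose and 1 fell. The rises were Cd247 (1.75-fold), the zeta chain of the receptor, Themis (1.62-fold), which thymocytes need for selection, the kinase gene Prkcq (1.53-fold) and the adaptor gene Lcp2 (1.52-fold), and the fall was Cd3g (1.39-fold). Fyn, a kinase related to Lck, read 9.95 and 10.11 against 9.61 and 9.53 (adjusted p = 0.0623), and Lck was not analysed here. Of 12 genes for the MHC ligands of the coreceptors and their loading 0 passed limma, with 2 higher at an unadjusted p under 0.05, the peptide transporter genes Tap2 (0.60, adjusted p = 0.0544) and Tap1 (0.36).

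Of 12 genes of the CD4- CD8- stage, which precedes the coreceptors, 7 fell and 1 rose, Kit (1.81-fold), encoding a receptor of early progenitors, with a median difference of -0.77. Il2ra, a receptor chain that marks this stage, read 8.83 and 9.11 with DMSO and 6.11 and 6.07 with GSI, and Ptcra, which pairs with the beta chain before the alpha chain exists, read 10.37 and 10.20 against 8.53 and 8.64. The largest falls of the list were those of the Notch target genes Dtx1, Il2ra, Nrarp and Hes1. All 7 genes that fell also belong to the 8 Notch targets used to check the treatment, so the 2 lists are not separate readings. The other 5 stage genes (Kit, Cd44, Erg, Hhex and Lyl1) had differences of 0.01 to 0.86, and 0 of them fell by limma, also before adjustment. Their DMSO means ran from 3.36 for Lyl1 to 4.69 for Kit, all below the array medians of 4.86 to 4.89. At that level a fall could hardly show, so these 5 genes do not tell whether the stage changed. Of 13 genes of the CD4+ CD8+ stage 4 rose and 9 did not pass, with a median of 0.44. They were Ccr9, a homing receptor gene, Cd27 (2.47-fold) and Cd28 (2.30-fold), both costimulatory receptor genes, and Cd1d1 (1.49-fold), a lipid-presenting molecule. The recombinase gene Rag2 read 7.55 and 7.55 against 6.58 and 7.01 (adjusted p = 0.0555), and Rag1 differed by 0.11, so the members of this list did not all point one way. Both stage lists were chosen with earlier results of these data known.

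Genes of the mature fates were mostly not called, but many were dim. Means lay above the array medians in only 5 of 13 CD8 effector and 6 of 12 CD4 helper genes. The medians of both lists thus rest largely on genes at levels where array values understate differences. Of 13 genes of CD8 effector cells 1 rose, the granzyme gene Gzma, from 11.72 on both DMSO arrays to 12.95 and 12.86 with GSI, and the median of the list was 0.03 (4 higher and 1 lower before adjustment). Itgae, an integrin chain gene, read 4.19 and 4.08 with DMSO and 5.33 and 4.80 with GSI (adjusted p = 0.0513). Ctsw read 6.27 and 5.79 against 7.49 and 6.84 (adjusted p = 0.0696) and Cd160 read 7.14 and 6.48 against 6.04 and 5.75 (adjusted p = 0.0895). Of 12 genes of CD4 helper cells 2 rose, the factor genes Maf (5.46-fold) and Rora (2.58-fold; adjusted p = 0.0455), and the median was -0.01 (4 higher and 1 lower before adjustment).

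T lineage markers gave a mixed check of the labelled cell type. Of 9 measured, Cd3d, Cd3g, Cd3e, Thy1, Ptprc and Lat were bright, with means between 10.42 and 12.64 in both groups, while Cd2, Cd5 and Cd6 lay below the array medians. Cd3g fell and Thy1 rose 1.44-fold. All 8 Notch targets used to check the treatment fell. The gene lists were chosen with earlier results of these data known, so this count is no independent check. Of 45 measured markers of other cell types 3 rose and 1 fell: Cpa3, Vim and Pecam1, and Pdgfrb. The summed level of the 8 erythroid and mast markers lay at 8.30 and 8.36 with DMSO and 9.46 and 9.97 with GSI, set by Cpa3, while the mast cell genes Ms4a2, Fcer1a and Mcpt1 reached at most 3.40. That of the 10 stromal and epithelial markers lay at 10.52 and 10.65 against 11.11 and 11.16, with Epcam, Krt8, Krt5, Col1a1 and Col1a2 reaching at most 5.76. The brightest of the 10 was Vim, at 9.56 and 9.87 with DMSO and 10.72 and 10.78 with GSI. The rise of this sum was set by Vim. The summed B cell (7.78 to 7.88), myeloid and dendritic (8.71 to 8.83) and natural killer (6.02 to 6.14) levels overlapped between the groups. The part of these markers in the coreceptor differences was not tested. Over probe sets, which are no replicates, arrays within a group correlated at 0.9959 (DMSO) and 0.9970 (GSI), and those between groups at 0.9915 to 0.9940.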

How the data were processed

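The deposited values were log2 expression, 1 per probe set and array, made with RMA per the submitters' processing notes. The RMA version is not given in the sources used here. RMA corrects background, normalizes between arrays and summarises probes, and it compresses differences of dim probe sets. Of 45101 probe sets 64 controls were left out. Of the 45037 tested, 34945 had 1 gene symbol in the platform annotation, which can be old, 932 had several and 9160 none. The gene identifier led to a current RefSeq symbol (GRCm38.p6) for 34741.

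GSI and DMSO arrays were compared in R 4.3.3 by limma 3.58.1 (lmFit, eBayes, group as the only term, two-sided, Benjamini-Hochberg), once over 18193 genes, each read from its brightest 1-symbol probe set, and once over every probe set. Calls needed an adjusted p under 0.05. SD is over 2 arrays, and SE and intervals come from the moderated fit. That fit adds prior degrees of freedom, estimated from all features, to the 2 residual ones. In the fit over genes 3.8 were added, 5.8 in total. Folds are back-transformed log2 differences. The small number of arrays limits the precision.

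The members and the gene lists were chosen with earlier results of these data known. All 9 members were named, with their nearest measured neighbours and the 3 genes most like each coreceptor gene in array pattern. Of each list up to 5 called genes with the largest changes were named, or the 2 with the smallest p where none was called; other names were chosen after their values were seen. Alternatives were probe set means, leaving out dim features (mean under 4.88), a trend and robust prior in eBayes, centred arrays, cyclic loess, a replicate block, a minimum fold of 2, and omitting each array. The fit was tested on simulated data for 18193 genes with 200 changed. Recovery was 98.2% for log2 changes of 2, 82.1% for 1 and 5.26% for 0.5. Over 45037 probe sets it recovered 95.0%, 38.1% and 0%. In the data 750 genes and 628 probe sets were called, more than the 200 changed here. Recovery in the data can therefore differ from these rates.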

Additional observations from a re-analysis of the deposited data

How the results depend on the processing

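Among the 9 genes, 5 were called higher, and 5 to 7 were under probe set means, dim genes left out, trend and robust prior, centring and cyclic loess; 0 were lower under any setting. With the replicate block 2 were (Cd8a and Cd8b1), with a 2-fold minimum 1 (Cd8a), and 0 in each of the 4 fits with 1 array left out (range 0 to 0). Among member probe sets the 7 calls became 11 with centring, 12 with dim probe sets left out, 15 with trend and robust prior, 4 with the 2-fold minimum, 0 with the replicate block and 0 with 1 array left out. Over all genes, 466 higher and 284 lower became 899 and 685 with dim genes left out, 1042 and 899 with trend and robust prior, 147 and 70 with the block, and 111 and 66 with the 2-fold minimum. With 1 array left out 0 to 1 were higher and 0 to 5 lower. Over all probe sets, 427 and 201 became 968 and 585, 1338 and 1034, 37 and 28, and 202 and 108 in the same order, and 0 and 0 with 1 array left out. Over all genes, probe set means gave 512 higher and 379 lower, centring 611 and 384, and cyclic loess 553 and 364. Over all probe sets, centring gave 626 and 290, and cyclic loess 543 and 266. Fewer features tested and fewer residual degrees of freedom are part of how some of these settings are made. Otherwise the cause was not tested. The replicate numbers pair nothing the labels name. The difference between arrays numbered 1 and 2 correlated at 0.07 between the groups across probe sets. This single value cannot show whether arrays with the same number were handled together. The change of Cd8a less that of Cd4, 0.33, was 0.10 with probe set means and 0.20 to 0.46 with 1 array left out. That of Cd8a less Cd8b1, 0.10, was -0.011 with probe set means and 0.03 to 0.17. The limma fits with 1 array left out assume that the lone array of a group varies as much as the intact group does. Scaling moved the median of all genes by less than 0.1 (-0.012 as reported, -0.00073 with cyclic loess).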
